A study of Caenorhabditis elegans with 93 samples.

Results

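The Hox genes of C. elegans are 6 homeobox genes, ceh-13, lin-39, mab-5, egl-5, php-3 and nob-1, and their RNA, the chromatin accessibility around them and the 22G-RNAs against them were followed over 20 generations of selfing. The 6 genes were matched by name among the 27790 genes of the RNA-seq table, and all 6 were found. Around them, 53 of the 31618 ATAC-seq regulatory elements lie within 10 kb of a Hox gene, and 2 of the 6 genes, mab-5 and nob-1, are among the 8479 genes with antisense 22G-RNAs.

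The worms were untreated N2, the standard laboratory strain, kept at 20 degrees in 3 independent lineages, A, B and C, of which 2 hermaphrodites founded each new generation, so that selection was weak. Embryos were obtained by bleaching in generation 0, the pre-mutation accumulation (PMA) generation, and in alternate generations from 2 to 20, and each lineage and generation gave 1 library per data type. This makes 3 libraries of generation 0 and 28 of later generations for each data type. Missing are lineage B of generation 4 and either lineage C of generation 14 (RNA and small RNA) or lineage C of generation 8 (ATAC-seq). The paper states that these were not sequenced because their yield was too low. Whole embryos were used, so that fewer cells of a type and less RNA per cell cannot be told apart. The libraries hold 42039288 to 49318096 RNA-seq reads, 2995631 to 12251653 ATAC-seq reads and 106897 to 1611500 small RNA reads, and values are read counts divided by a size factor for each library (normalized counts).

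Hox genes encode homeodomain transcription factors that give cells along the head to tail axis their regional identity. In C. elegans they lie in 3 separated pairs. ceh-13, the ortholog of labial, acts in the anterior and in embryonic morphogenesis. lin-39, related to Sex combs reduced, acts in the mid body and in vulval cells, and mab-5, related to Antennapedia, acts in the posterior body and in migrating neuroblasts. egl-5, php-3 and nob-1 are relatives of Abdominal-B and act in the tail, with nob-1 known for its part in patterning the posterior of the embryo. ceh-13 and nob-1 with php-3 are the members needed for embryonic development, whereas the other members are best known for their larval functions. Polycomb-like proteins, Wnt signals and the caudal homolog pal-1 are known regulators of these genes.

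All 6 genes lie on chromosome III (coordinates of WBcel235). lin-39 (WBGene00003024, minus strand) spans 7528650 to 7536649 and ceh-13 (WBGene00000437, plus strand) spans 7555660 to 7558208, with 19010 bp between them. mab-5 (minus strand, 7776835 to 7783454) and egl-5 (plus strand, 7814374 to 7817140) are 30919 bp apart. php-3 (minus strand, 12074111 to 12077556) and nob-1 (minus strand, 12077747 to 12084316) are separated by 190 bp. The pairs themselves are far apart, with 219 kb between ceh-13 and mab-5 and 4.26 Mb between egl-5 and php-3. Reads were counted without strand, and the non-coding RNA genes that overlap lin-39 (C07H6.14 and C07H6.18) and egl-5 (C08C3.10) have mean normalized counts of 1.51, 0.537 and 0.29, so that few reads can be shared with them.

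Every Hox gene was measured far above the detection limit in each RNA library. The lowest number of reads behind any of these values was 706, for egl-5, and the highest was 5246, for ceh-13. Per kilobase of exon, the mean level over the 31 libraries was 4085 normalized counts for ceh-13, 1470 for lin-39, 1237 for php-3, 780 for mab-5, 584 for egl-5 and 518 for nob-1. The anterior gene ceh-13 was therefore the most abundant Hox RNA of these embryos. On this per-length scale ceh-13 was above lin-39 in 31 of 31 libraries, lin-39 above php-3 in 30, php-3 above mab-5 in 31, and mab-5 above egl-5 in 31. Only the neighbours egl-5 and nob-1 often changed places, egl-5 being the higher in 25 of 31 libraries.

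The question of the first comparison was whether embryos of later generations differ from the embryos collected in the PMA generation of the same lineage. The lineages were founded from an expanded population and run in parallel. Generation 0 therefore cannot be told apart from its time of collection. RNA of ceh-13 and nob-1 fell after generation 0, while the 4 other Hox genes did not pass the test. In generation 0, ceh-13 had 4411 normalized counts in lineage A, 5015 in B and 5734 in C, a mean of 5054 ± 662 (SD, n = 3). In the 28 later libraries the lowest value was 3105, the median 3606 and the highest 4352. The groups do not overlap, and each of the 28 later libraries was below generation 0 of its own lineage. Over all 16714 genes tested, 4.45% had all 3 generation 0 libraries above every later library. The difference, on the scale of log2(normalized count + 1) with lineage as a block, was -0.47 (SE 0.08, 95% interval -0.64 to -0.31, limma, adjusted p = 3.24e-05), which is 0.72 times the generation 0 level.

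nob-1 had 1334 normalized counts in generation 0 of lineage A, 1535 in B and 1834 in C, and 835, 1038 and 1453 as the lowest, median and highest values of the later libraries. Of the 28 later libraries 27 were below generation 0 of their lineage, the exception being generation 4 of lineage A. The difference of nob-1 was -0.55 on the log2 scale (SE 0.10, 95% interval -0.77 to -0.34, limma, adjusted p = 0.0001142), or 0.681 times the generation 0 level. In both genes the gap was smallest in lineage A and widest in lineage C. The mean log2 difference of ceh-13 was -0.34 in lineage A, -0.46 in B and -0.62 in C, and that of nob-1 was -0.34 in A, -0.58 in B and -0.74 in C.

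**Figure D1:**
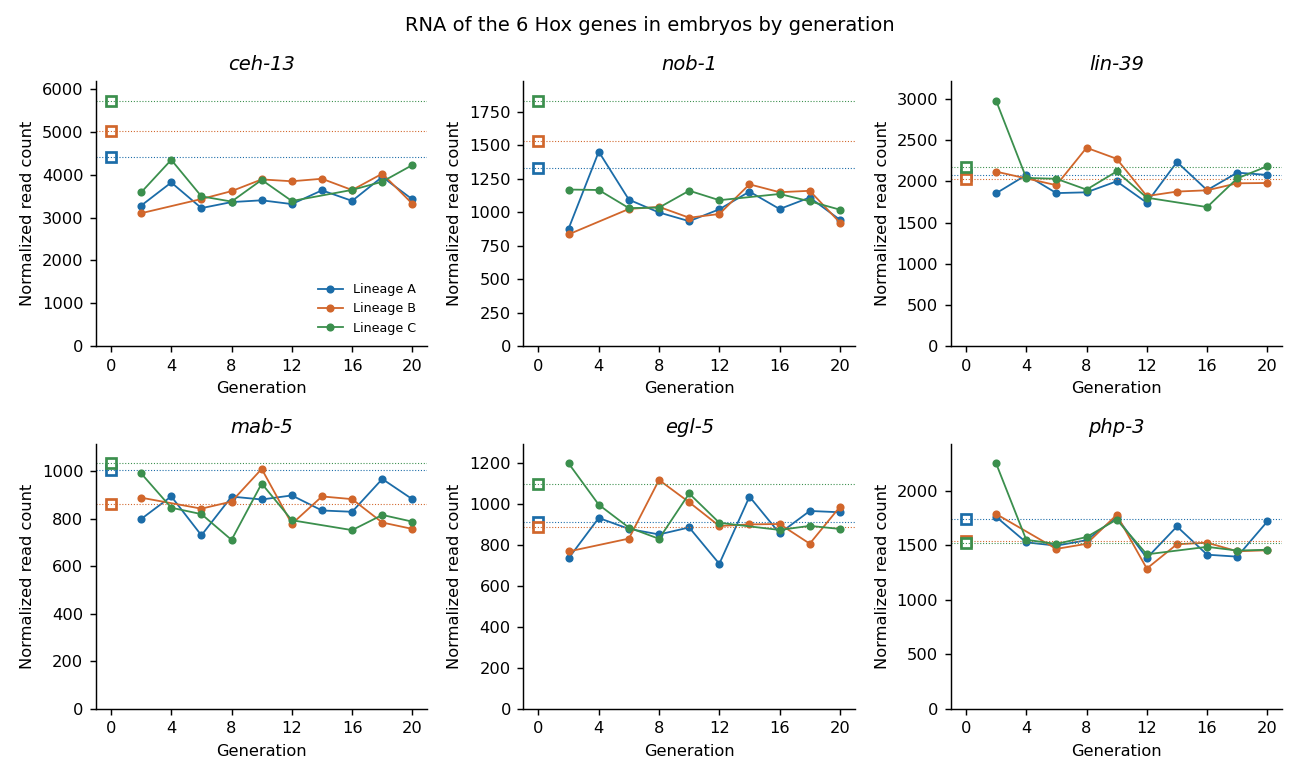
Normalized RNA-seq read counts of the 6 Hox genes (y axis) by generation (x axis), with 1 library per point; open squares and dotted lines give generation 0 of lineages A, B and C. All later points of ceh-13 lie below the 3 squares, 1 later point of nob-1 (1453, lineage A) lies above the lowest square, and the points of the 4 other genes overlap the squares.

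The 4 other members had later values on both sides of generation 0. lin-39 had 2077, 2027 and 2181 normalized counts in generation 0 of lineages A, B and C, against 1688, 1991 and 2981 as lowest, median and highest later. php-3 had 1740, 1543 and 1525 in generation 0, against 1287, 1514 and 2253 later. For both genes the highest value of all libraries was generation 2 of lineage C.

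egl-5 had 911, 886 and 1096 normalized counts in generation 0 of the 3 lineages, against 707, 892 and 1198 as lowest, median and highest later, again with generation 2 of lineage C on top. mab-5 had 1004, 862 and 1032 in generation 0, against 710, 843 and 1009 later, and it was below generation 0 of its lineage in 10 of 10 libraries of A and 9 of 9 of C but in 4 of 9 of B. The limma differences on the log2 scale were -0.05 for lin-39 (95% interval -0.26 to 0.15), -0.19 for mab-5 (-0.37 to -0.01), -0.08 for egl-5 (-0.30 to 0.13) and -0.04 for php-3 (-0.25 to 0.17), with adjusted p from 0.09244 for mab-5 to 0.7912 for php-3.

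edgeR and DESeq2, run on the recovered reads, also called ceh-13 and nob-1 only, where they called 39.5% and 41.9% of all genes. So 2 of 6 Hox genes were called, both lower, with a median difference of -0.14 on the log2 scale over the 6. This count has to be read against the whole table, in which 6626 of 16714 genes (39.6%) were called, 21.9% lower and 17.7% higher, with a median difference of 0.02. The share of Hox genes called is thus near that of all genes.

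Markers of embryo stage moved with generation 0 as well. Of 12 maternal and early embryo markers 11 were lower later, of 14 zygotic mid embryo markers 10 were lower, and of 11 late differentiation markers 9 were higher. The summed normalized counts of the early list were 64461, 84297 and 109401 in generation 0 of A, B and C against 37892 to 77153 later, those of the mid list were 44734, 51172 and 47869 against 30698 to 42927, and those of the late list were 328812, 304044 and 282251 against 330937 to 549117. The groups overlap for the early list only. The 12 sperm genes were scarce, with a summed 31.4, 42.6 and 39.4 normalized counts in generation 0 of A, B and C and 20.2 to 67.4 later. Of the 6 vitellogenin genes, yolk proteins of the adult intestine, only vit-1 was not scarce, with 2592, 3475 and 2635 normalized counts in generation 0. The others had at most 53.2 in any library of generation 0 and at most 104 later. The sums over the 6 genes were 2667, 3605 and 2700 in generation 0 and 1901 to 3042 later. Of them 1, vit-1, was lower later and 1, vit-6, was higher. vit-6 had 8.7 to 21.3 normalized counts in generation 0 and 14.6 to 46.4 later. Of 6 genes of larval and adult cuticle 2 were higher later, with sums of 132, 154 and 174 in generation 0 and 133 to 241 later. The part of these materials in the differences was not tested. With the mean of the late markers as a covariate, the difference was -0.38 for ceh-13 (limma, adjusted p = 0.0175) and -0.61 for nob-1 (adjusted p = 0.00582). With the early markers as a covariate, a fit added after the results were known, it was -0.54 (adjusted p = 0.00126) and -0.64 (adjusted p = 0.00317). A covariate made from a marker list is not a measure of embryo age, and the part of stage in the differences was not tested further.

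Because the ratio of 2 genes within a library does not depend on how libraries are scaled, the 15 ratios among the 6 genes were compared between generation 0 and later generations. These tests were added once the fold changes were known and use the same libraries, so they restate those changes free of scaling and are no further support for them. The share of such ratios past the threshold among other genes was not computed. In each, 1 library of every lineage was drawn as generation 0 in all 1100 possible ways (exact permutation within lineages, two-sided, smallest possible p = 0.000909), with adjustment over the 15 ratios. All 8 ratios of ceh-13 or nob-1 to lin-39, mab-5, egl-5 or php-3 were past the threshold, with ceh-13 or nob-1 the member that was relatively lower later, and adjusted p from 0.00682 to 0.0153. The ratio of ceh-13 to nob-1 changed by 0.08 on the log2 scale (exact permutation, p = 0.32, adjusted p = 0.4), and the 6 ratios among the other 4 genes had adjusted p of 0.172 to 0.845. Libraries of successive generations in a lineage are related by descent, which the permutation does not take into account.

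The ratio of ceh-13 to egl-5 was below all of generation 0 in 27 of 28 later libraries and that of ceh-13 to lin-39 in 26 of 28 (exact permutation, p = 0.000909 for both). The genes php-3 and nob-1 are the closest neighbours on the chromosome. The ratio of nob-1 to php-3 was 0.767, 0.994 and 1.20 in generation 0 of lineages A, B and C. In later libraries it ran from 0.467 to 0.951, with medians of 0.707 in A, 0.698 in B and 0.698 in C, so that it overlapped the generation 0 value of A only. The difference in log2 ratio of php-3 to nob-1 was 0.52 (exact permutation, p = 0.00455, adjusted p = 0.0114). In each of the 3 lineages the lowest ratio of nob-1 to php-3 was that of generation 2, at 0.498, 0.467 and 0.519, against 0.531 to 0.951 from generation 4 on. The ratio of ceh-13 to lin-39 was 2.12, 2.47 and 2.63 in generation 0, and its medians in later libraries were 1.78 in A, 1.76 in B and 1.88 in C. The passes of the exact tests depended on lineages B and C: without lineage A 7 of the 15 ratios passed, whereas without lineage B or without lineage C 0 of 15 passed, with smallest adjusted p of 0.102 and 0.0545. Only 110 arrangements remain without B or without C and only 100 without A, which limits how small p can be in each case. The difference of php-3 to nob-1 was then 0.49 without B and 0.37 without C. That of ceh-13 to lin-39 was -0.40 and -0.36, against -0.42 with all lineages. The pattern over generations is drawn in the plot of the ratios.

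**Figure D2:**
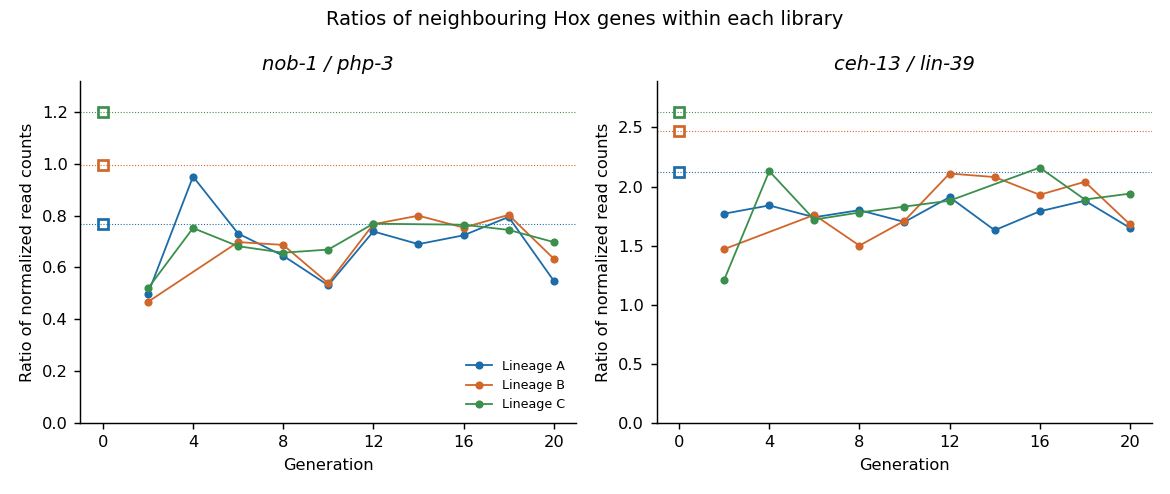
Ratios of normalized read counts (y axis) of nob-1 to php-3 and of ceh-13 to lin-39 by generation (x axis), 1 point per library; open squares and dotted lines mark generation 0. Generation 2 gives the lowest ratio of nob-1 to php-3 in all 3 lineages (0.498, 0.467 and 0.519).

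Regulators known to act on Hox genes were then examined in the same fit, where the counts called in each group are to be read against the 21.9% of all genes called lower and 17.7% called higher. The caudal homolog pal-1, which specifies posterior fates, fell, with 3860, 4724 and 5715 normalized counts in generation 0 of A, B and C and 2380 to 3703 later, without overlap. Its difference was -0.69 on the log2 scale (SE 0.10, limma, adjusted p = 3.015e-06). vab-7, a homolog of even-skipped that acts in the posterior, also fell, from 738, 801 and 879 in generation 0 to 450 to 741 later (difference -0.44, SE 0.10, adjusted p = 0.0007779). In this group of 6 upstream regulators 2 were lower, 0 were higher and 4 were not called, with a median difference of -0.06. pal-1 stayed past the threshold with the late and with the early marker covariate (adjusted p = 0.0175 and 0.0145), and vab-7 did not with the late one (adjusted p = 0.185).

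Among 8 Polycomb-like regulators, which keep Hox genes silent outside their domains, 3 were lower, 0 were higher and 5 were not called (median -0.17), a share near the 39.6% of all genes. These were sor-3 (-0.32, SE 0.09, limma, adjusted p = 0.003413), mes-6, the homolog of the extra sex combs protein (-0.52, SE 0.15, adjusted p = 0.006111), and mes-2, the homolog of the methyltransferase Enhancer of zeste (-0.45, SE 0.14, adjusted p = 0.01059). sor-3 did not overlap, with 2122, 2234 and 2230 normalized counts in generation 0 of A, B and C and 1424 to 1993 later. mes-6 (1731, 2205 and 2452 in generation 0, 1155 to 2230 later) and mes-2 (1863, 2393 and 2344 in generation 0, 1129 to 2451 later) did overlap. With the late marker covariate mes-2 (-0.27, adjusted p = 0.359) and mes-6 (-0.16, adjusted p = 0.6) were no longer called, and with the early one their differences changed sign, to 0.0618 and 0.143. sor-3 was not called with the early covariate either (-0.26, adjusted p = 0.124). Without lineage B or without lineage C the calls of mes-6 (limma, adjusted p = 0.0848 in both) and mes-2 (adjusted p = 0.136 and 0.106) are lost as well.

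The TALE homeodomain proteins bind DNA together with Hox proteins. Of the 5 genes of this group 1 was lower, ceh-40, of the Pbx type (-0.38, SE 0.11, limma, adjusted p = 0.008136), and 4 were not called, including ceh-20 and unc-62, the partners best known in C. elegans. Its call is lost without lineage B (-0.34, limma adjusted p = 0.116) and with the late marker covariate (-0.39, adjusted p = 0.0996), with differences close to that of the fit with all lineages and no covariate. Of 5 genes described as targets of Hox proteins, hlh-8, egl-1, psa-3, mig-13 and eff-1, 0 were called by limma. psa-3 (0.36, limma adjusted p = 0.1017) and eff-1 (0.19, adjusted p = 0.06683) had an unadjusted p under 0.05. Of all genes at least the 39.6% called after adjustment did so too, so this says nothing particular to these targets. edgeR and DESeq2 called 0 of the 5 as well.

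Wnt signalling sets the expression of several Hox genes. Of 6 genes for Wnt ligands and their secretion 1 was lower and 1 higher. mom-2, the Wnt of the early embryo, was lower (-0.48, SE 0.11, limma, adjusted p = 0.001154), and egl-20, a Wnt made in the posterior, was higher (0.34, SE 0.11, adjusted p = 0.01372), with 1012, 852 and 777 normalized counts in generation 0 and 779 to 1379 later. Of 5 receptors 1 was lower, the Frizzled mom-5 (-0.60, SE 0.12, adjusted p = 0.0001668). Of 13 intracellular components 6 were lower, 1 was higher and 6 were not called (median -0.08).

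The lower genes of that group include the Dishevelled genes dsh-2 (-0.65, SE 0.12, limma, adjusted p = 7.426e-05) and mig-5 (-0.44, SE 0.10, adjusted p = 0.0006752) and the beta-catenin wrm-1 (-0.48, SE 0.09, adjusted p = 0.0001896). The gene that rose was bar-1 (0.37, SE 0.10, adjusted p = 0.003177), the beta-catenin of the canonical pathway through which Wnt signals reach mab-5 and lin-39 in larvae. Of the named Wnt genes only wrm-1 stayed past the threshold with either marker list as a covariate, and mom-2 changed sign, to 0.0365, with the early list. Leaving out lineage B ends the calls of mom-2 (limma, adjusted p = 0.0539) and egl-20 (adjusted p = 0.133), and leaving out lineage C those of egl-20 (adjusted p = 0.165) and bar-1 (adjusted p = 0.111). The differences of all these genes with their intervals are given in the plot of effects.

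**Figure D3:**
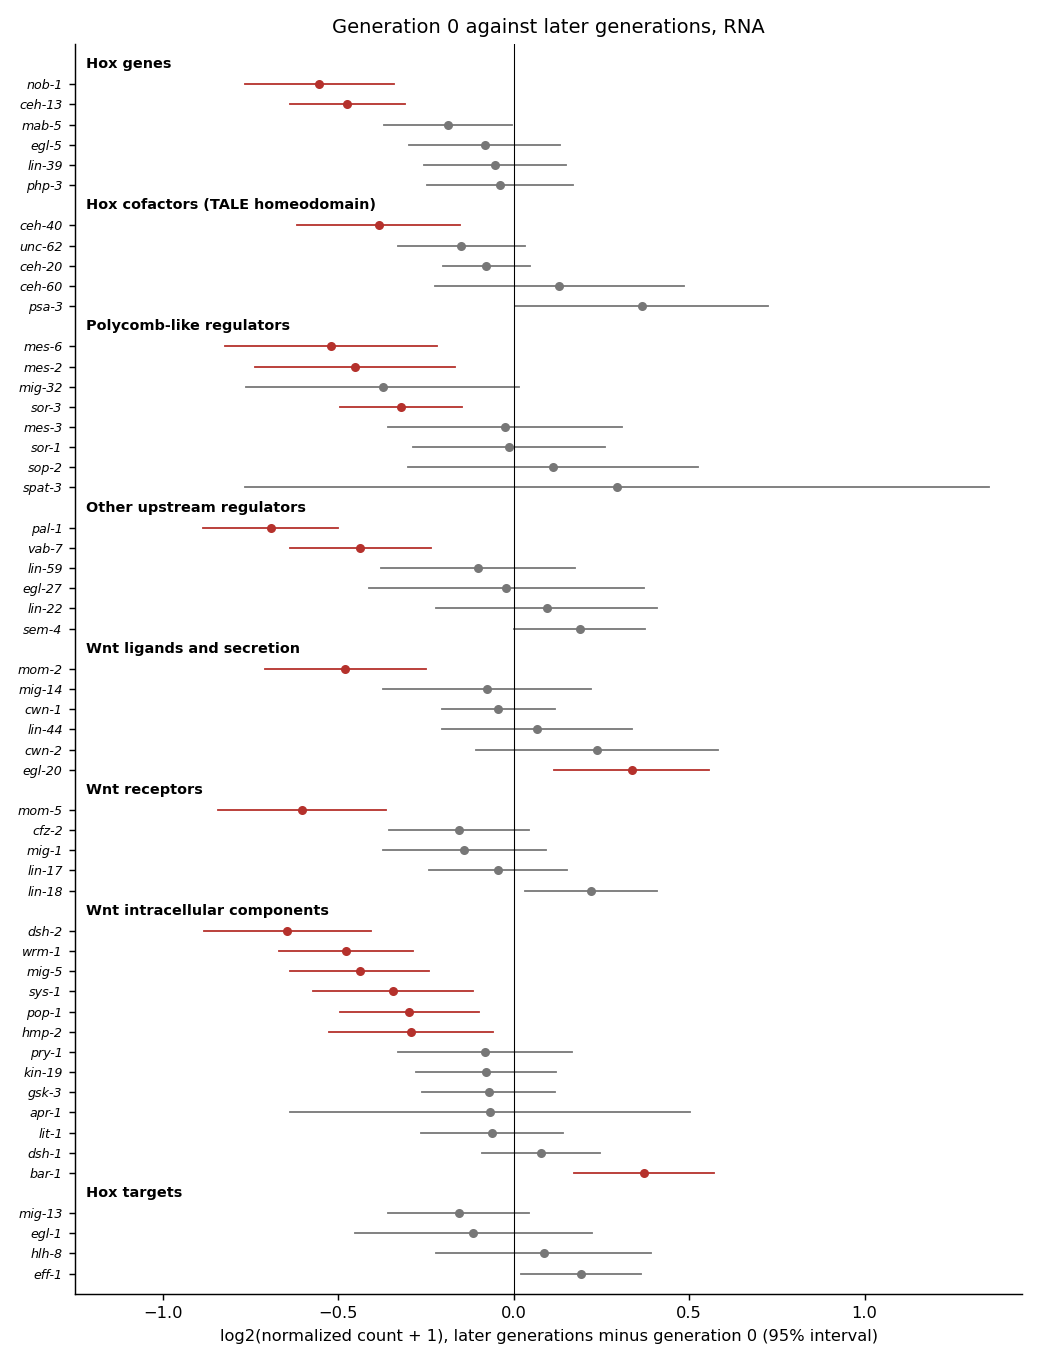
Difference in log2(normalized count + 1) between later generations and generation 0 (x axis) for the Hox genes and the genes of 7 related groups (y axis); points are limma estimates, lines 95% intervals, and red marks an adjusted p under 0.05. psa-3, a member of 2 groups, is drawn once. nob-1 and ceh-13 are the 2 Hox genes in red, at -0.55 and -0.47.

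Within generations 2 to 20 the RNA of the Hox genes showed little drift. In limma 0 of 6 slopes over generations passed the threshold, where 4 of 16737 genes did (0.0239%). At an unadjusted p under 0.05 there was 1 Hox gene, php-3, against 15.9% of all genes. Its slope was -0.0127 log2 units per generation (SE 0.0052, limma, adjusted p = 0.2392). edgeR and DESeq2 called 0 of 6 as well, where they called 0.0538% and 0.884% of all genes. Between lineages 0 of 6 genes passed the limma F test (adjusted p of 0.9087 to 0.9732), where 6 genes in all did (0.0358%). At an unadjusted p under 0.05 there were also 0 of 6, against 4.61% of all genes, and edgeR called 0 of 6. The SD of the later libraries on the log2 scale was 0.12 for ceh-13, 0.13 for mab-5, 0.16 for lin-39, php-3 and nob-1 and 0.17 for egl-5. In linear terms the coefficient of variation lay between 8.62% for ceh-13 and 12.3% for lin-39, against 1.62% and 2.21% from read counting alone.

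Epimutations were called in the study from Z-scores of the change from generation 0 of the same lineage, given the mean level, with a fixed cut-off. The study also removed changes that began together and lasted equally long in all lineages. Only the cut-off was applied here, so the shares are not those the study reports. By this cut-off 0 of the 168 Hox RNA values were called, against 4.75% of the values of all genes and 0.55% of those of genes with a mean of at least 500 normalized counts. The most extreme Hox value was a Z-score of -0.88, for nob-1. Z-scores were below 0 in 28 of 28 libraries for ceh-13 and in 27 of 28 for nob-1, and in 16 to 22 for the other 4 genes. The fall of ceh-13 and nob-1 after generation 0 thus lay within the spread that defines the cut-off.

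The Hox genes were also compared in pairs among the 28 later libraries. With lineage means subtracted, 6 of the 15 pairs had a Pearson correlation past the threshold (100000 permutations within lineages, two-sided, adjusted over 15 pairs). The highest was that of lin-39 and egl-5, which belong to different pairs, at r = 0.72 (permutation p = 4.0e-05, adjusted p = 0.00060; Spearman rho = 0.65, permutation p = 0.00032). Without the 2 libraries farthest from the median r was 0.57, and within lineages it was 0.91 in A, 0.54 in B and 0.80 in C. ceh-13 and nob-1 had r = 0.54 (permutation p = 0.00197, adjusted p = 0.00945; rho = 0.48, permutation p = 0.01076), and 0.55 without the 2 farthest libraries. The share of pairs of other genes that would pass was not computed, so the count says nothing particular to the Hox genes. The other 9 pairs did not pass, with r from -0.20 for ceh-13 and php-3 upwards. The adjacent genes php-3 and nob-1 had r = -0.16 (permutation p = 0.379, adjusted p = 0.435).

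The remaining pairs past the threshold were lin-39 with php-3 (r = 0.68), lin-39 with mab-5 (0.60), mab-5 with php-3 (0.52) and mab-5 with egl-5 (0.47). Several of these rest on generation 2, which includes the high values of lineage C. Without generation 2 lin-39 and egl-5 were the only pair past the threshold (r = 0.73, permutation p = 4.0e-05, adjusted p = 0.00060, 25 libraries), as they were when ranks were used, and ceh-13 and nob-1 had r = 0.46 (adjusted p = 0.0721).

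Against the stage markers, the mean log2 level of the mid embryo list went with ceh-13 (r = 0.55, rho = 0.57, permutation p = 0.00413 and 0.00228) and with nob-1 (r = 0.55, rho = 0.52, permutation p = 0.00346 and 0.00752), each with an adjusted p of 0.0192 over 18 relations. php-3 went with the maternal list by r (0.68, permutation p = 0.00044, adjusted p = 0.00792) and by rho (0.51, permutation p = 0.00717, adjusted p = 0.0451). It went against the late list by r (-0.54, permutation p = 0.00427, adjusted p = 0.0192). By rho that relation did not pass (-0.42, permutation p = 0.0325, adjusted p = 0.146). The share of other genes that would pass against these lists was not computed. Without the 2 farthest libraries r was 0.61 for ceh-13 and 0.70 for nob-1 with the mid list, and 0.52 and -0.57 for php-3. For the mid list r was 0.39, 0.46 and 0.78 within lineages A, B and C for ceh-13, and 0.68, 0.80 and -0.21 for nob-1. For php-3 it was 0.89, 0.23 and 0.75 with the maternal list and -0.53, -0.56 and -0.56 with the late list. Without generation 2 these 4 relations had r of 0.47, 0.49, 0.44 and -0.44 and none of the 18 passed (adjusted p = 0.162 for each of the 4).

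For each Hox gene, the 3 protein-coding genes outside the family with the most similar RNA profile over the 31 libraries were listed, by Pearson r of log2 values among 11405 genes with a mean of at least 100 normalized counts. For ceh-13 these were C06E2.5 (r = 0.94), lin-52 (0.93), a subunit of the DREAM complex, and F10E9.11 (0.93). For nob-1 they were hrpk-1 (0.93), an RNA-binding protein of the hnRNP K type, nol-56 (0.92), a nucleolar protein, and R11.4 (0.92). For lin-39 they were arx-6 (0.93), a subunit of the actin-nucleating Arp2/3 complex, the homeobox gene ceh-37 (0.89) and C01G6.4 (0.86).

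The profiles of php-3 were closest to those of sti-1 (0.87), a co-chaperone, cpt-1 (0.86), named as a carnitine palmitoyl transferase, and Y17G7B.17 (0.86). For egl-5 they were F21F3.7 (0.78), pqn-96 (0.78) and Y71F9AL.9 (0.75), and for mab-5 they were F58H1.5 (0.76), mmab-1 (0.72) and cox-18 (0.71). The best matches of egl-5 and mab-5 were thus weaker than those of the other 4 genes. The median r over all genes searched was between 0.03 and 0.06.

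Accessibility was measured at 53 distinct elements of 150 bp, of which 37 lie within 5 kb of a Hox gene. ceh-13 has 11 of them, lin-39 13, mab-5 16, egl-5 4, php-3 6 and nob-1 9, and all 6 elements of php-3 are shared with nob-1. For 35 elements the nearest start of a coding transcript is that of a Hox gene, and for the other 18 it is that of another gene. The gene itself is the nearest for 9 elements of ceh-13, 9 of lin-39, 5 of mab-5 and 3 of egl-5. It is the nearest for 9 of nob-1 and 0 of php-3, whose elements are nearest to nob-1. Introns of lin-39, mab-5 and nob-1 hold 7, 4 and 5 elements. The median of the mean normalized counts was 117 for these elements and 118 for all elements, with a range from 24.6 to 587.

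The most accessible element near each gene, with coordinates as the authors' table gives them, was upstream of it in every case. For egl-5 it was chrIII:7812327-7812477, centred 1972 bp upstream of the start, with 551, 409 and 750 normalized counts in generation 0 of A, B and C and 311, 596 and 860 as lowest, median and highest later. For php-3 and nob-1 it was one and the same element, chrIII:12085018-12085168, 777 bp upstream of nob-1, with 521, 353 and 530 in generation 0 and 266, 410 and 734 later. For lin-39 it was chrIII:7536700-7536850, 143 bp upstream, with 395, 348 and 407 in generation 0 and 260, 313 and 393 later.

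For mab-5 the most accessible element was chrIII:7789244-7789394, 5865 bp upstream, with 338, 293 and 416 normalized counts in generation 0 and 201, 306 and 377 later. For ceh-13 it was chrIII:7549071-7549221, 6514 bp upstream, with 191, 188 and 183 in generation 0 and 154, 189 and 252 later. In each of these 5 elements the later libraries overlapped generation 0. The limma differences of the 5 were 0.03 for egl-5 (95% interval -0.47 to 0.53), -0.11 for php-3 and nob-1 (-0.49 to 0.27), -0.28 for lin-39 (-0.52 to -0.03), -0.17 for mab-5 (-0.44 to 0.10) and 0.02 for ceh-13 (-0.19 to 0.24), with adjusted p of 0.3594 to 0.9811.

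The element nearest to a transcript start overlaps the first exon of egl-5 (chrIII:7814309-7814459, difference -0.02, 95% interval -0.24 to 0.20). It lies 523 bp upstream of ceh-13 (chrIII:7555062-7555212, -0.19, -0.61 to 0.23), 1051 bp upstream of mab-5 (chrIII:7784430-7784580, 0.21, -0.16 to 0.58), 88 bp from a second start of lin-39 (chrIII:7534818-7534968, -0.13, -0.39 to 0.12), and 215 bp from a start of nob-1 (chrIII:12079575-12079725, -0.08, -0.34 to 0.18), where it is also the nearest to php-3 at 2094 bp upstream. These intervals all include no change. Among the other elements of ceh-13 and nob-1, whose RNA fell, there were 3 with an interval that does not, none of them past the threshold after adjustment. They lie 3850 bp upstream of ceh-13 (chrIII:7551735-7551885, -0.38, -0.68 to -0.08, limma adjusted p = 0.2932), 10644 bp downstream of its start (chrIII:7566229-7566379, 0.47, 0.12 to 0.82, adjusted p = 0.2688) and 4839 bp upstream of nob-1 (chrIII:12089080-12089230, 0.52, 0.17 to 0.88, adjusted p = 0.2213), and they were singled out after their values were seen. The second of them is nearest to the start of ttr-32. The first had 100, 85.7 and 106 normalized counts in generation 0 of A, B and C and 54.4 to 101 later, and was below generation 0 of its lineage in 9 of 10 libraries of A, 7 of 9 of B and 9 of 9 of C.

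Across the 53 elements 0 passed the threshold of limma between generation 0 and later generations, and this was so for all 31498 elements tested (0%). At an unadjusted p under 0.05 there were 6 (11.3%), 3 lower and 3 higher, against 11.4% of all elements, and neither edgeR nor DESeq2 called any of the 53, where DESeq2 called 344 elements in all (1.09%). Slopes over generations passed for 0 of 53 in limma, edgeR and DESeq2, against 1 element in all by limma (0.00317%), and 2 of 53 had an unadjusted p under 0.05, against 5.41% of all elements. edgeR and DESeq2 called 0.00317% and 0.121% of all slopes. Differences between lineages passed for 0 of 53 in limma and edgeR, as for all elements, and 6 of 53 (11.3%) had an unadjusted p under 0.05, against 5.29% of all elements. Between generation 0 and later generations the differences of the 53 elements ranged from -0.58 to 0.76, with a median of -0.04 and a median SE of 0.15.

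**Figure D4:**
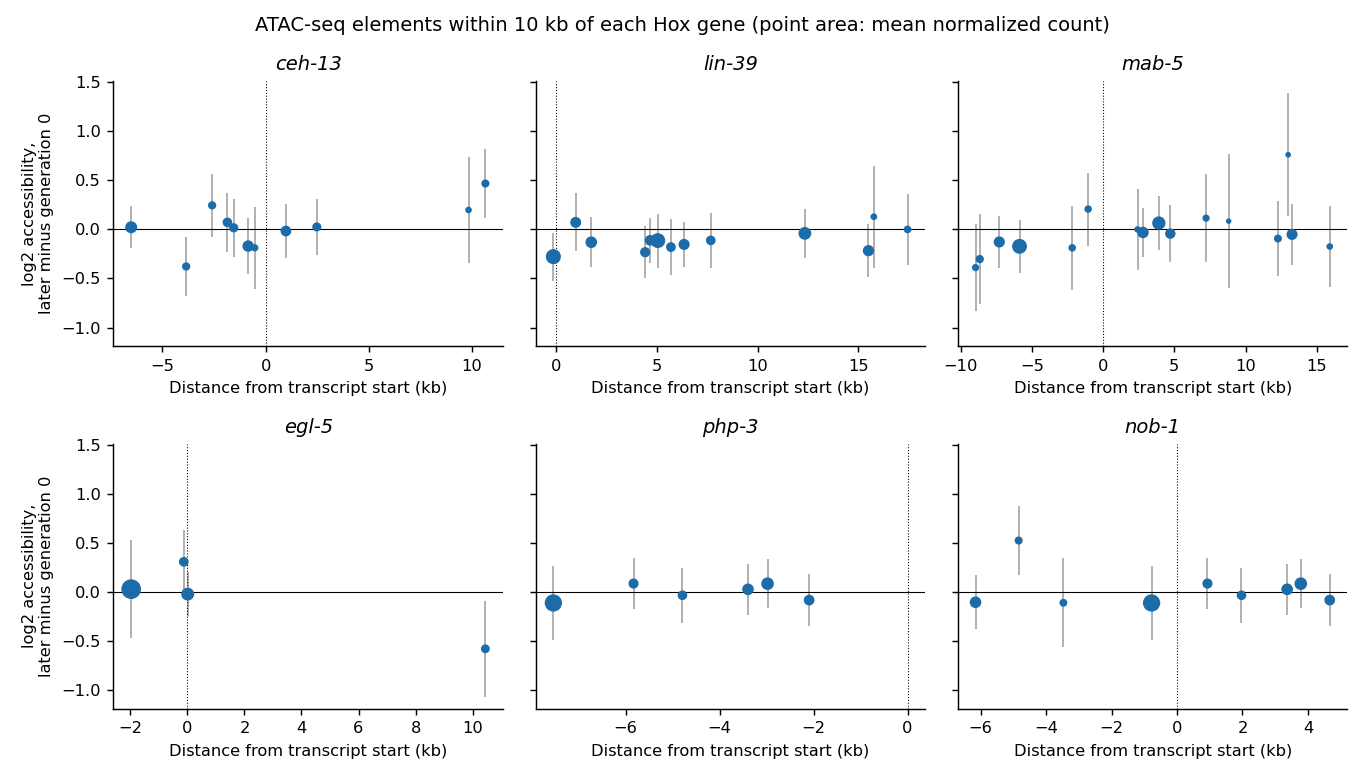
Difference in log2 accessibility between later generations and generation 0 (y axis) against the distance of the element centre from the 5′ end of each gene (x axis, kb, negative upstream); lines are 95% intervals and point area is the mean normalized count. None of the 53 elements passed the threshold, and the php-3 elements are those of nob-1.

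By the Z-score rule 53 of the 1484 Hox element values (3.57%) were called, 22 up and 31 down, against 3.06% of all element values. They fell on 17 of the 53 elements, and 52 of the 53 calls were on elements with a mean under 100 normalized counts, of which there are 21. The 2 elements with most calls, chosen here after their values were seen, held 20 of the calls, and without them the share was 2.31% (33 calls).

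One of these, chrIII:7770392-7770542, lies 12987 bp downstream of the start of mab-5 and is nearest to the start of snu-23. It was called up in 8 consecutive sampled generations of lineage B, 2 to 18, with Z-scores of 2.44 to 5.65, and also down in lineage A at generations 4 and 8 (-2.37 and -3.55) and up in lineage C at generation 18 (2.27). Its generation 0 value in lineage B was 6.68 normalized counts, from 12 reads, against 20.2 in lineage A and 24.4 in lineage C, while the later libraries of lineage B held 10.3 to 36.4, with a median of 26.5. The later medians were 24.4 in A and 31.5 in C, so that lineage B was lowest in generation 0 while its later median lay between those of the other lineages.

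The other, chrIII:7824746-7824896, lies 10447 bp downstream of the start of egl-5 and is nearest to egl-45. It was called down in 9 libraries, 6 of them in lineage B with a longest run of 4. It had 134, 169 and 86.7 normalized counts in generation 0 of A, B and C, and later medians of 85.2, 85.9 and 73.5. Another element, chrIII:12089080-12089230, 4839 bp upstream of nob-1, was called up in 5 libraries of lineage A, where generation 0 had 36.5 and later libraries 56.7 to 103. It had the smallest p of the 53 elements (difference 0.52, SE 0.17, limma, adjusted p = 0.2213). In all 3 elements the lineage with most calls was the one whose generation 0 value was the lowest or the highest of all 31 libraries.

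**Figure D5:**
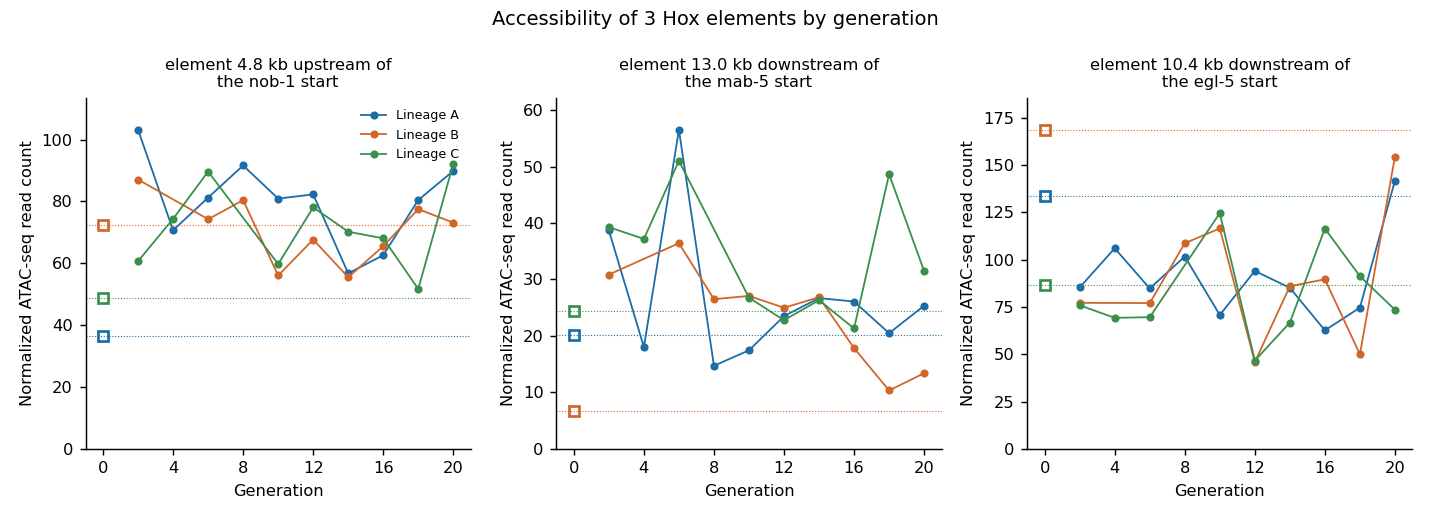
Normalized ATAC-seq read counts (y axis) by generation (x axis) of 3 elements chosen after their values were seen, 1 point per library, with open squares and dotted lines for generation 0. In lineage B generation 0 is the lowest value of the mab-5 element (6.68) and the highest of the egl-5 element (169).

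No relation between RNA and accessibility of a Hox gene passed the threshold over the 30 libraries present in both data types. The mean log2 accessibility of the elements of a gene, with lineage means subtracted, had a Pearson r with its RNA of -0.02 for ceh-13 (permutation p = 0.926), 0.01 for lin-39 (p = 0.945), 0.29 for mab-5 (p = 0.134), 0.03 for egl-5 (p = 0.887), 0.16 for php-3 (p = 0.423) and -0.14 for nob-1 (p = 0.492), with adjusted p of 0.803 to 0.945 over 6 relations. Spearman rho lay between -0.17 and 0.29, with permutation p of 0.131 to 0.977. Without the 2 libraries farthest from the median accessibility, r lay between -0.11 and 0.18. Within lineages r of mab-5 was 0.02 in A, 0.79 in B and 0.02 in C. Its average is over 16 elements, of which only 5 have mab-5 as the nearest coding start. For the 5 other genes the values within lineages ranged from -0.49 to 0.57. With only the element nearest to a start of each gene, none passed either (permutation, adjusted p of 0.207 to 0.697). There r was 0.29 for ceh-13, 0.31 for lin-39, -0.08 for mab-5 and 0.17 for egl-5. For php-3 and nob-1, which share that element, r was 0.42 and 0.08. The values of php-3 had permutation p = 0.0344 for r and 0.0109 for rho (0.46, adjusted p = 0.0655).

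Averaged over its elements, the log2 accessibility of ceh-13 was 6.50, 6.51 and 6.55 in generation 0 and 6.32, 6.54 and 6.70 as lowest, median and highest later. That of nob-1 was 7.14, 7.26 and 7.05 in generation 0 and 6.98, 7.20 and 7.34 later, so the 2 genes whose RNA fell had mean accessibility in generation 0 inside the later range. lin-39 had 7.22, 7.34 and 7.21 in generation 0 and 7.06, 7.15 and 7.27 later, a mean difference of -0.11.

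Antisense 22G-RNAs, small RNAs that are copied from target transcripts and loaded on Argonaute proteins, were few at the Hox genes. mab-5 had 8.49, 6.26 and 11.8 normalized counts in generation 0 of A, B and C, from 11, 8 and 26 reads, and 0, 8.82 and 18.0 as lowest, median and highest later. nob-1 had 3.86, 0.78 and 1.36 in generation 0, from 5, 1 and 3 reads, and 0, 2.58 and 10.9 later. At 3 reads or fewer stood 6 of 31 libraries for mab-5 and 20 of 31 for nob-1. Both lie under the minimum mean of 10 normalized counts for the test, in which 1.23% of the 6180 genes were called. In the fit without that filter, where 68 of 8479 genes (0.802%) were called, the differences were -0.23 for mab-5 (95% interval -1.33 to 0.88) and 0.32 for nob-1 (-0.89 to 1.53), both with a limma adjusted p of 0.998, and a difference of less than about that width was not detectable at this depth.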

How the data were processed

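For the deposited signal, the authors scaled counts with size factors from DESeq2. They aligned RNA-seq and ATAC-seq reads to WS252 with Bowtie2 and counted them without strand over genes or over published elements with BEDTools; 22G-RNAs were aligned to ce11 with Bowtie. Versions of the aligners, BEDTools and DESeq2 are not given in the sources used here. A 1 in the deposited RNA-seq or ATAC-seq tables stands for no reads and was read as 0, and whole reads were recovered within 0.001 read for 100% of values. Gene spans and element coordinates are those of the deposited tables, and transcript starts and exon lengths are from Ensembl release 115 (WBcel235).

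Features with a mean of at least 10 normalized counts were tested with limma 3.58.1 on log2(normalized count + 1), moderated, with a robust mean trend and Benjamini-Hochberg adjustment over all features at 0.05. Lineage was a block for generation 0 and slopes. Count tests on those reads (edgeR 4.0.16 and DESeq2 1.42.0 in R 4.3.3), pseudocounts of 0.5 and 5, other filters, TMM scaling, each lineage left out and stage marker covariates were alternatives. Permutations were run in Python 3.11.15. Libraries are successive generations, so p-values measure the spread between related libraries. The members, gene lists and tests were chosen with earlier results of these data known. Named were the 6 genes, the most accessible element and that nearest to a start for each, called list genes (up to 4 a list) and the 3 most similar genes. Stage marker lists are given as counts. Scripts were tested on simulated data.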

Additional observations from a re-analysis of the deposited data

Results flagged for a closer look

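In each lineage the later libraries of the 6 genes and of the 10 named elements were searched for a value far from the others, in 48 groups, of which chance flags about 1 in 20. Generation 2 of lineage C was far above the other later libraries of that lineage for lin-39 (2981 normalized counts, the next being 2184) and php-3 (2253, the next being 1736). Generation 4 of lineage A was far above for nob-1 (1453, the next being 1155). Among elements, the one 2094 bp upstream of php-3 had its lowest value of lineage A in generation 18 (102.4 normalized counts, the next being 141.2), and the one 1051 bp upstream of mab-5 its highest of lineage B in generation 10 (82.5, the next being 63.13).

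For 1 element of mab-5, chrIII:7776153-7776303, which is nearest to bath-15, every later library of lineage C was above generation 0 (27.2 normalized counts) and every later library of lineage B was below it (72.4). The difference between these changes was not tested. The later levels of the 3 lineages, with medians of 59.6 in A, 57.3 in B and 47.4 in C, did not pass the limma test between lineages (adjusted p = 0.8669), and the pattern rests on 1 generation 0 library per lineage.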

How the results depend on the processing

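The calls of ceh-13 and nob-1 between generation 0 and later generations held in all 15 alternatives each, with differences of -0.543 to -0.383 and -0.661 to -0.462 on the log2 scale and adjusted p of at most 0.0175 and 0.0201, and 2 of 6 Hox genes were called in each. Without the replicate block of lineage the differences were -0.477 and -0.555. No member changed its side of the threshold for slopes or lineages, also with generation number as a replicate block for lineages (0 of 6 called). Differences that did not pass changed sign with the late and early marker covariates for lin-39 (0.137 and 0.149) and php-3 (0.205 and 0.24), with the early covariate for egl-5 (0.026), and for php-3 without lineage A (0.0202). With the early covariate the sign also changed for mes-6 (0.143), mes-2 (0.0618) and mom-2 (0.0365). Of elements, the sign changed for that 777 bp upstream of nob-1 without lineage A (0.0564), for that 6514 bp upstream of ceh-13 without lineage C (-0.0524) and for that 1972 bp upstream of egl-5 without lineage B (-0.145). In each of these cases the cause was not tested. Element calls by Z-score, 53 of 1484 at the cut-off of the study, numbered 74 at a cut-off of 2 (4.73% of all element values were called there) and 16 at a cut-off of 3 (0.927% of all). The ratios of 2 genes that passed numbered 0 without lineage B and 0 without lineage C, where 110 arrangements allow no p below 0.00909. Without lineage A, where 100 arrangements allow no p below 0.01, some ratios still passed. Pairs of genes that varied together numbered 1 without generation 2 and 1 with ranks, and relations to stage markers numbered 0 without generation 2. Of the other values of single features, 381 kept their direction and side, and 25, of single regulators, lost their call. For the comparisons, 102 counts of calls stayed near the main count without always being equal to it. The 74 element calls at a cut-off of 2 are among these. Limits are 1 library per lineage and generation, 3 libraries of generation 0, and element counts that at the lowest rest on 2 reads.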
